A study of Homo sapiens with 36 samples.

Results

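The histone genes of K562 cells, a human chronic myelogenous leukaemia line, were followed through 6 d of culture at lowered oxygen. The set held every gene row named HIST1, HIST2, HIST3 or HIST4, called the replication-dependent histones here by name. It also held 7 variant or replacement histones, H2AFX, H2AFZ, H2AFV, H3F3A, H3F3B, H1F0 and H1FX. The members were 80 of the 21950 genes measured, 73 of them replication-dependent by name. Those 73 include HIST1H2APS1, HIST2H2BA and HIST2H2BC, which carry pseudogene symbols, and the germ-line gene HIST1H1T. The rule used names only and no measured value. RNA was sequenced after poly(A) selection from cells kept in 1%, 5% or 21% oxygen and harvested at 6 h, 24 h, 3 d and 6 d, with 3 libraries for each of the 12 groups. No group carried a genetic change or a drug. Plates were passaged at 3 d, and each oxygen level was 1 incubator setting, so oxygen and incubator cannot be told apart. The labels do not say whether the libraries of a group came from separate cultures, so p-values measure only the spread between these libraries.

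Histones package DNA into nucleosomes. H2A, H2B, H3 and H4 form the core of the particle and H1 binds the linker DNA at its entry and exit. Most copies are made during S phase from clustered genes without introns, and the mRNAs of those genes normally end in a conserved stem-loop in place of a poly(A) tail. The stem-loop binds SLBP, and its processing and decay tie histone mRNA to DNA synthesis. Some of these genes can also yield polyadenylated mRNA, known from differentiating or resting cells. Variant histones such as H2A.Z and H3.3 come from genes outside the clusters, are made throughout the cell cycle and carry ordinary poly(A) tails. A poly(A)-selected library therefore reports the polyadenylated part of the replication-dependent mRNAs, or what passes the selection without a tail, and not their total.

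The stem-loop is shown because mRNAs that end at it, in place of a poly(A) tail, should be missed by poly(A) selection. Its presence in a gene model does not show that the mRNA ends there. In GENCODE 29 (GRCh38), 35 of the 73 HIST genes have a model with at least 60 bases after the stop codon, and 30 of those hold the stem-loop. In 21 of the 30, some model runs on for at least 200 bases beyond it. The forms below are given 5′ to 3′ with the whole stem-loop in capitals and with the number of HIST genes that carry each, HIST1H4J included, whose model has 44 bases after the stop codon and so is not among the 30. A further form, found in 1 HIST gene, HIST1H2AG, is not listed.
Form in 17 genes, among them HIST2H2BE, HIST1H2AC, HIST3H2A and HIST1H3H: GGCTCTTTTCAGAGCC
Form in 5 genes, among them HIST1H2BD: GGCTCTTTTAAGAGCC
Form in 5 genes, among them HIST1H4E and HIST1H4H: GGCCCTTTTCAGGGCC
Form in 3 genes, among them HIST1H4I: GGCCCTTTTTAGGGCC
H2AFX was the variant with a stem-loop, in 2 of its 2 models: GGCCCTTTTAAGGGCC
None of the models of the other 6 variants held one. Many of the other HIST models stop at the stop codon, so no match there says nothing about the mRNA.

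The promoters of the HIST1H1 linker histone genes are shown because these genes moved in opposite directions at low oxygen, as described further on. RefSeq gives a promoter for 71 of the 80 members (GRCh38.p14). Both strands of the 250 bases before the start were searched. The motifs were the H1 box, spelled AAACACA. They were also the CCAAT box, spelled by its name, the TATA box as TATAAA and the octamer as ATTTGCAT. The H1 box lay in 6 of 6 HIST1H1 promoters and in none of the other members, the linker variant H1FX included, against 4.95% of all 27305 promoters. CCAAT lay in 6 of 6 HIST1H1, 16 of 16 H2A, 18 of 18 H2B and 12 of 12 H3 promoters but in 3 of 13 H4 promoters, against 33.0% of all. The octamer lay in 14 of 18 H2B and 11 of 16 H2A promoters, in none of the HIST1H1 or H4 promoters, and in 1.66% of all. In the stretches below the H1 box, CCAAT and TATAAA are in capitals, on either strand.
HIST1H1E (H1.4), chr6:26156209-26156328, plus strand: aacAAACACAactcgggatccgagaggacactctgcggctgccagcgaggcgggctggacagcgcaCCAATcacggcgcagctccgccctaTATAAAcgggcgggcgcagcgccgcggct
HIST1H1C (H1.2), chr6:26056471-26056590, minus strand: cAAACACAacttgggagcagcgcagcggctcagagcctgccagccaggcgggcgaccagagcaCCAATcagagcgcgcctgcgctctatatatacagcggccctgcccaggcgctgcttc
HIST1H1B (H1.5), chr6:27867589-27867708, minus strand: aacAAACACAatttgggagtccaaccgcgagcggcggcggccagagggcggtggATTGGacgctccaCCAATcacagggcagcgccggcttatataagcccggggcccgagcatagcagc
HIST1H1D (H1.3), chr6:26234988-26235107, minus strand: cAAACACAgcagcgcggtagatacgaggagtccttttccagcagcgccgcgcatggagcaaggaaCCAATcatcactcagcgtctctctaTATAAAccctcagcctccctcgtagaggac
All 4 hold the H1 box upstream of CCAAT. The TATAAA match was in 43 of 65 replication-dependent promoters and in 11.1% of all. A match is a description and says nothing about binding.

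The values are FPKM, which scale reads to gene length and library, so levels of different genes can be set side by side. Libraries held between 14512 and 19543 genes above 0, except replicate 3 of 1% oxygen at 3 d, which held 7220 and is called the shallow library. Of the 53 members that could be tested, 32 were listed at 0 in it, so results are given with and without it. Relative depth, estimated from the steps of weak genes, lay between 0.344 and 1.51 in the other 35 libraries. Erythroid markers were present in those 35 (GATA1 at 178 to 308 FPKM), as this line should show, and the lymphoid marker CD3E was at 0.420 FPKM or less. EPCAM, an epithelial marker, was present at 53.0 to 139 FPKM. The share of 394 olfactory receptor genes above 0, a sign of weak background reads, was 66.0 to 74.6% in 5% oxygen at 6 d and 48.0 to 56.3% in 5% oxygen at 3 d, against 39.6 to 48.2% and 33.8 to 38.8% in 21% oxygen at those times. In 1% oxygen it was 23.6 to 37.1% at 6 d and 2.28 to 70.1% at 3 d, the lowest being the shallow library. The part of these differences in the results below was not tested.

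A small number of genes made up most of the histone signal. Over all 36 libraries the highest mean levels were those of H2AFZ (1958 FPKM), HIST1H1C (1194), HIST1H4C (1132), HIST1H2BK (1043), H3F3A (627) and HIST1H1E (397). HIST1H2AC (219 FPKM), H3F3B (204), HIST1H3B (160) and H2AFV (99.8) followed. HIST1H1C, HIST1H4C and HIST1H2BK together held 63.4% of the replication-dependent FPKM, and the 10 highest genes held 84.8%. A mean of at least 1 FPKM, needed for testing, was reached by 53 members, 47 replication-dependent and 6 variant. Those 47 were 4 of 6 H1, 14 of 18 H2A, 15 of 20 H2B, 7 of 14 H3 and 7 of 15 H4 genes. The 15 H2B genes include HIST2H2BC, which carries a pseudogene symbol. H1F0 stood at 0.0989 FPKM or less in 35 libraries and at 7.51 FPKM in the shallow library, and was not tested. HIST2H3A, HIST2H3C, HIST2H4A and HIST2H4B were listed at 0 in every library. Each of these has an exact coding copy, HIST2H3A in HIST2H3C and HIST2H4A in HIST2H4B, so the zeros are no measure of their mRNA. Over all HIST genes, a median of 75.9% of the 25-base windows of the coding sequence occur in no other gene, 24 genes have under 50% and 9 have none.

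Low oxygen changed individual histone genes in both directions. At 6 h 0 members passed the test in either oxygen level (limma, adjusted p under 0.05 over all 10625 genes), with 2 members at an unadjusted p under 0.05 in 1% and 4 in 5% oxygen; 0% of all genes passed there. At 3 d in 5% against 21% oxygen 4 members were higher and 13 lower, 17 of 53, while 21.8% of all genes passed (8.25% higher and 13.6% lower). At 6 d in 5% oxygen 7 were higher and 4 lower, 11 of 53, while 14.8% of all genes passed (7.24% higher and 7.59% lower). At 3 d in 1% against 21% oxygen 7 were higher and 16 lower, 23 of 53, with 53.2% of all genes past the test (16.9% higher and 36.3% lower). At 6 d in 1% oxygen 7 were higher and 2 lower, 9 of 53, with 10.9% of all genes past the test (5.84% higher and 5.04% lower). The members' share of calls was below that of all genes in 1% oxygen at 3 d and above it at 5% oxygen at 3 d, and neither difference was tested. Fewer cells in S phase and less histone mRNA per cell cannot be told apart in these bulk libraries.

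Without the shallow library the spread shared by all groups narrowed and more genes passed. Then 12 members were higher and 11 lower in 1% against 21% oxygen at 3 d, while 53.7% of all genes passed (25.1% higher and 28.6% lower). In 1% oxygen at 6 d 12 were higher and 10 lower, beside 29.9% of all genes (13.8% higher and 16.1% lower). In 5% oxygen 6 were higher and 21 lower at 3 d, beside 45.1% of all genes (15.7% higher and 29.4% lower). In 5% oxygen at 6 d 12 were higher and 10 lower, beside 36.9% (15.2% higher and 21.7% lower). The median log2 difference of the 53 members was then 0.07 in 1% and -0.21 in 5% oxygen at 3 d, with medians of -0.02 and -0.10 over all genes. At 6 d the members' medians were -0.05 and -0.11, with -0.03 and -0.06 over all genes. The comparisons of 1% and of 5% oxygen use the same 21% libraries and are not independent of each other.

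**Figure D1:**
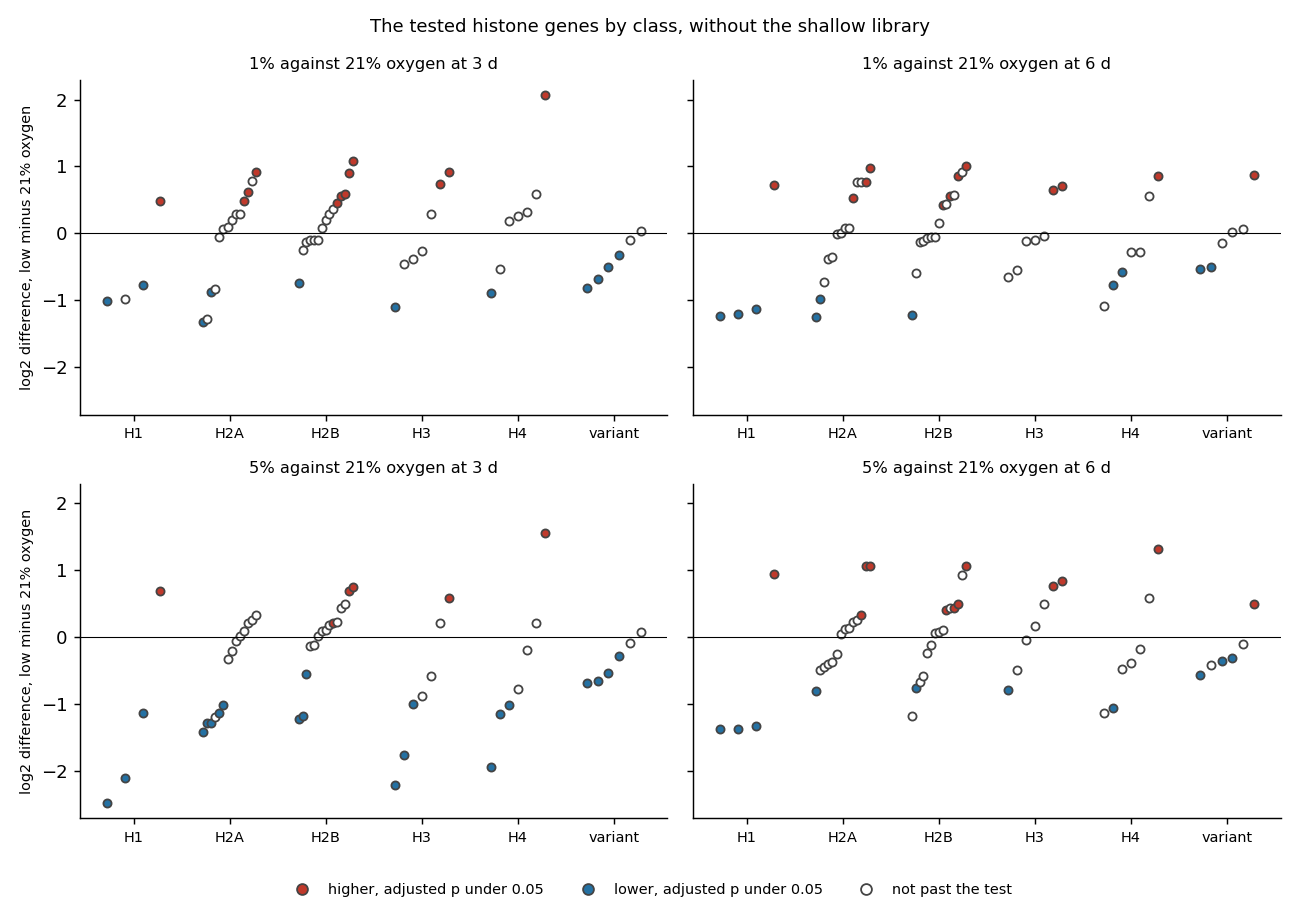
log2 differences of the 53 tested histone genes (low oxygen minus 21% oxygen, log2 of FPKM plus 1) by class, at 3 d and 6 d, fitted without the shallow library; each point is 1 gene, and filled points passed an adjusted p under 0.05. In 5% oxygen at 3 d the linker class holds genes on both sides of 0, as HIST1H1C (0.69) and HIST1H1E (-2.48) show. So do the H2B class, with HIST2H2BE (0.76) and HIST1H2BF (-1.18), and the H4 class, with HIST1H4H (1.56) and HIST1H4C (-1.02).

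The tested linker histone genes of the HIST1 cluster were 4, and they parted at 3 d and 6 d. HIST1H1C, which encodes H1.2, the most abundant linker mRNA here, was higher in low oxygen, and HIST1H1E, HIST1H1B and HIST1H1D, which encode H1.4, H1.5 and H1.3, were lower. At 3 d HIST1H1C had 1675, 1705 and 1674 FPKM in 5% oxygen, against 1044, 965 and 1140 FPKM in 21% oxygen. At 6 d it had 1782, 1684 and 1751 FPKM in 1% and 2043, 1995 and 2037 FPKM in 5% oxygen, against 1099, 1017 and 1036 FPKM in 21% oxygen. In these 3 comparisons every low-oxygen library lay above every 21% library. HIST1H1C rose by 0.69 on the log2 scale in 5% oxygen at 3 d (SE 0.138, adjusted p 0.000455) and by 0.95 at 6 d (adjusted p 1.11e-05). The 6 d rise in 1% oxygen was 0.73 (adjusted p 0.000493). In 1% oxygen at 3 d it had 1448, 1484 and, in the shallow library, 896 FPKM, a difference of 0.25 that missed the test (adjusted p 0.131) and of 0.48 without that library (adjusted p 0.000892).

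HIST1H1E went the other way. Its levels at 3 d were 188, 244 and, in the shallow library, 79.2 FPKM in 1% oxygen and 148, 137 and 20.6 FPKM in 5% oxygen, against 471, 397 and 406 FPKM in 21% oxygen. Its levels at 6 d were 254, 224 and 212 FPKM in 1% and 193, 209 and 181 FPKM in 5% oxygen, against 569, 464 and 484 FPKM in 21% oxygen. No low-oxygen library reached the lowest 21% library at 3 d or 6 d. HIST1H1E fell by 2.48 in 5% oxygen at 3 d (SE 0.426, adjusted p 6.78e-05) and by 1.37 at 6 d (adjusted p 0.0272). Replicate 3 of 5% oxygen at 3 d weighs on the first value, which was -1.57 without it (adjusted p 0.00012). In 1% oxygen it fell by 1.45 at 3 d (adjusted p 0.00596), and without the shallow library the difference was -0.98 (adjusted p 0.0521). At 6 d in 1% oxygen the difference was -1.13, with an adjusted p of 0.094 over all libraries and of 0.0243 without the shallow one.

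HIST1H1B and HIST1H1D lay lower with HIST1H1E. At 6 d HIST1H1B had 26.0, 30.0 and 28.4 FPKM in 1% and 28.7, 32.5 and 19.5 FPKM in 5% oxygen, against 76.1, 65.4 and 61.3 FPKM in 21% oxygen. HIST1H1D at 6 d had 4.75, 5.6 and 5.10 FPKM in 1% and 3.07, 5.01 and 5.53 FPKM in 5% oxygen, against 15.6, 12.3 and 11.7 FPKM in 21% oxygen. Neither gene's groups overlapped. In 5% oxygen HIST1H1B fell by 2.11 at 3 d (adjusted p 0.00031) and by 1.32 at 6 d (adjusted p 0.0273), and was at -1.28 at 3 d without replicate 3 of that group (adjusted p 0.00211). HIST1H1D fell by 1.14 and 1.38 at those times (adjusted p 0.0387 and 0.0166), but at 3 d the call was lost without replicate 3 (-1.16, adjusted p 0.0785). In 1% oxygen HIST1H1D fell by 1.69 at 3 d and by 1.20 at 6 d (adjusted p 0.000922 and 0.0499); without the shallow library, where it was listed at 0, the 3 d difference was -0.78 (adjusted p 0.00091). In 1% oxygen HIST1H1B was at -0.67 and -1.23 (adjusted p 0.166 and 0.0525). Without the shallow library HIST1H1B was at -1.0 in 1% oxygen at 3 d and at -1.23 at 6 d (adjusted p 0.0496 and 0.016). HIST1H1T and HIST1H1A, the germ-line H1t gene and the gene of H1.1, had means of 0.407 and 0.104 FPKM and were not tested.

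Within a library, where scaling to depth cancels, HIST1H1E over HIST1H1C was 0.142, 0.133 and 0.121 in 1% and 0.0945, 0.105 and 0.0887 in 5% oxygen at 6 d, against 0.518, 0.456 and 0.467 in 21% oxygen. At 3 d the ratio was 0.130, 0.164 and 0.0884 in 1% and 0.088, 0.0803 and 0.0123 in 5% oxygen, against 0.452, 0.411 and 0.356 in 21% oxygen. At 24 h the order was opposite, with 0.796, 0.681 and 0.685 in 1% and 0.694, 0.627 and 0.724 in 5% oxygen, against 0.441, 0.494 and 0.293 in 21% oxygen. At 6 h the ranges overlapped, with 0.392 to 0.543 in 1%, 0.569 to 0.722 in 5% and 0.499 to 0.625 in 21% oxygen. These ratios are descriptions, since the pair was chosen after its values were seen.

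**Figure D2:**
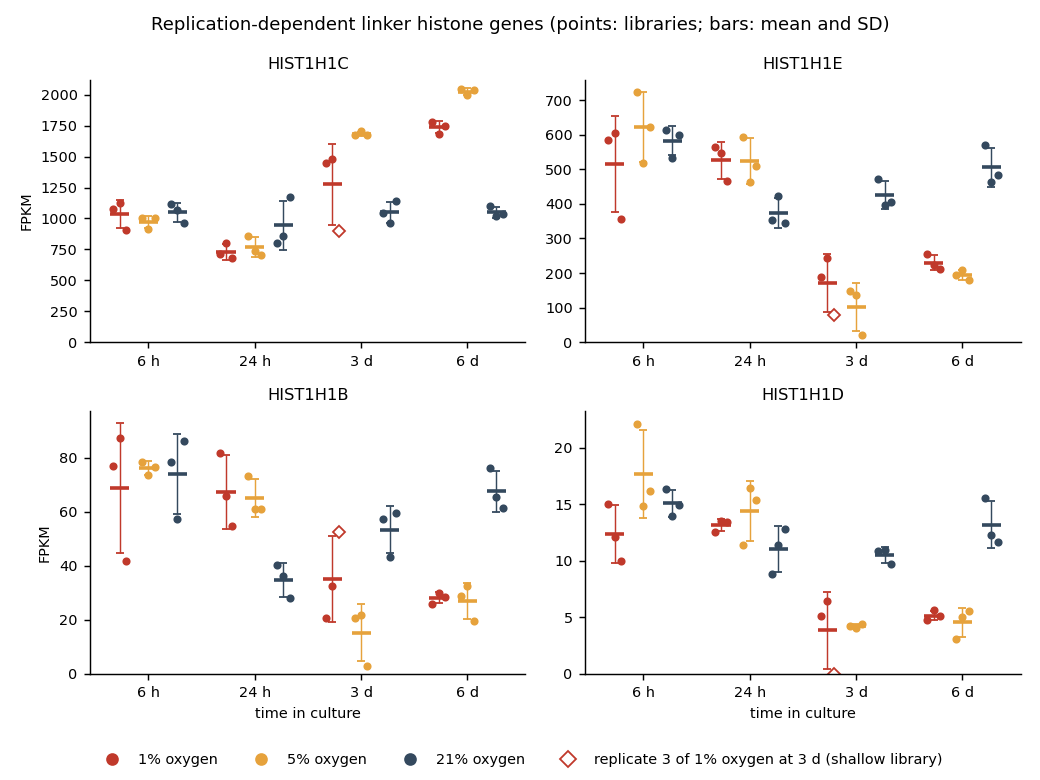
FPKM of the 4 tested HIST1H1 linker histone genes in every library by time and oxygen level; points are libraries, bars the mean and SD of 3, and the open diamond is the shallow library. At 3 d and 6 d HIST1H1C lies higher in 5% oxygen than in 21% oxygen, and the other 3 genes lie lower.

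The core histones also divided. HIST2H2BE, an H2B gene outside the large chromosome 6 cluster, rose at 3 d and 6 d in both oxygen levels. At 3 d it had 37.0, 38.4 and 39.5 FPKM in 1% oxygen, the last in the shallow library, and 28.3, 28.0 and 33.9 FPKM in 5% oxygen, against 18.2, 17.0 and 16.8 FPKM in 21% oxygen. Its 6 d levels were 31.6, 31.8 and 35.1 FPKM in 1% and 35.2, 35.9 and 31.3 FPKM in 5% oxygen, against 16.1, 14.9 and 16.3 FPKM in 21% oxygen. All low-oxygen libraries of these times lay above all 21% libraries. The log2 rises were 1.10 and 0.76 at 3 d and 1.01 and 1.06 at 6 d in 1% and 5% oxygen, with an SE of 0.115 in each and adjusted p-values between 1.21e-08 and 1.26e-05. At 6 h HIST2H2BE had 17.1, 17.8 and 20.6 FPKM in 1% oxygen and 12.7, 14.1 and 15.9 FPKM in 5% oxygen, against 14.3, 13.9 and 13.8 FPKM in 21% oxygen. Every 1% library thus lay above every 21% library at 6 h as well, a difference of 0.37 that missed the test (unadjusted p 0.0031, adjusted p 1), while the 5% libraries overlapped with those of 21% oxygen. At 24 h it had 12.3 to 13.0 FPKM in 1% and 11.9 to 14.5 FPKM in 5% oxygen, against 11.3 to 17.8 FPKM in 21% oxygen, and all 3 ranges overlapped.

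HIST1H4H, an H4 gene, had the largest rise of the tested members at 3 d in both oxygen levels. At 3 d it had 109, 156 and 158 FPKM in 1% and 83.8, 96.5 and 95.9 FPKM in 5% oxygen, against 33.1, 25.3 and 33.7 FPKM in 21% oxygen. HIST1H4H at 6 d had 51.9, 64.5 and 72.3 FPKM in 1% and 101, 85.1 and 72.6 FPKM in 5% oxygen, against 28.1, 42.5 and 32.2 FPKM in 21% oxygen. The groups did not overlap. It rose by 2.16 in 1% and 1.56 in 5% oxygen at 3 d (SE 0.279, adjusted p 4.64e-07 and 0.000111) and by 0.86 and 1.31 at 6 d (adjusted p 0.0446 and 0.00124).

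Among H2A and H2B genes the abundant HIST1H2BK and HIST1H2AC rose at 6 d. HIST1H2BK had 1522, 1540 and 1620 FPKM in 1% and 1428, 1369 and 1415 FPKM in 5% oxygen, against 1125, 1041 and 1013 FPKM in 21% oxygen, rises of 0.56 and 0.41 (adjusted p 0.000392 and 0.00687). HIST1H2AC had 346, 315 and 353 FPKM in 1% and 235, 248 and 258 FPKM in 5% oxygen, against 219, 194 and 180.0 FPKM in 21% oxygen. It rose by 0.78 in 1% oxygen (adjusted p 2.95e-05), and was at 0.33 in 5% oxygen (adjusted p 0.0652). HIST3H2A had 179, 160 and 182 FPKM in 1% oxygen at 6 d, against 84.7, 81.0 and 96.3 FPKM in 21% oxygen, a rise of 0.98 (adjusted p 1.56e-05). In 5% oxygen at 6 d HIST3H2A had 95.6, 103 and 85.6 FPKM, a difference of 0.12 from 21% oxygen (adjusted p 0.718). HIST1H3D rose by 0.65 in 1% and 0.83 in 5% oxygen at 6 d (adjusted p 0.00728 and 0.000453). All 25-base windows of its coding sequence occur elsewhere in the annotation, so its reads may be shared with other genes. Its closest member of the same coding length was 88.1% identical. HIST1H2BJ rose by 0.44 in 5% oxygen at 6 d (adjusted p 0.0153). HIST1H2BK shares most of its coding sequence too, with 10.1% of windows in no other gene, and HIST2H2BE has 20.7%. HIST1H4H has 97.9% and HIST1H1C 97.1%.

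Over all libraries genes of all 4 core classes were called lower at 3 d, in 5% oxygen 2 each of the H2A, H2B, H3 and H4 genes. Of these calls in 5% oxygen, only that of HIST1H3B held without replicate 3 of that group (-1.23, adjusted p 0.000522). HIST1H3B had 61.0, 52.6 and 18.4 FPKM in 5% oxygen at 3 d, against 159, 127 and 120 FPKM in 21% oxygen, a fall of 1.76 (SE 0.295, adjusted p 5.06e-05). HIST1H3J had 24.8, 30.8 and 3.39 FPKM in 5% oxygen at 3 d, against 72.7, 70.9 and 65.7 FPKM in 21% oxygen, a fall of 2.21 (adjusted p 0.0355). HIST1H4C, the most abundant H4 mRNA, had 602, 605 and 295 FPKM in 5% oxygen at 3 d, against 871, 985 and 1037 FPKM in 21% oxygen, a fall of 1.02 (adjusted p 0.00491). HIST1H4I had 15.9, 20.0 and 12.4 FPKM, against 70.5, 65.3 and 55.2 FPKM, a difference of -1.94 (adjusted p 0.0504 over all libraries and 2.97e-07 without the shallow one). In each of these 4 genes all 5% libraries lay below all 21% libraries. In 1% oxygen at 3 d HIST1H3J had 33.0 and 31.4 FPKM and was listed at 0 in the shallow library, a fall of 2.78 (adjusted p 0.00345) that was -1.09 without that library (adjusted p 0.0296). HIST1H4I had 26.3 and 43.6 FPKM and was listed at 0 in the shallow library, a fall of 2.59 (adjusted p 0.00356) that was -0.88 without it (adjusted p 0.0085). At 6 d HIST1H3B was at -0.65 in 1% and -0.78 in 5% oxygen (adjusted p 0.198 and 0.0763).

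**Figure D3:**
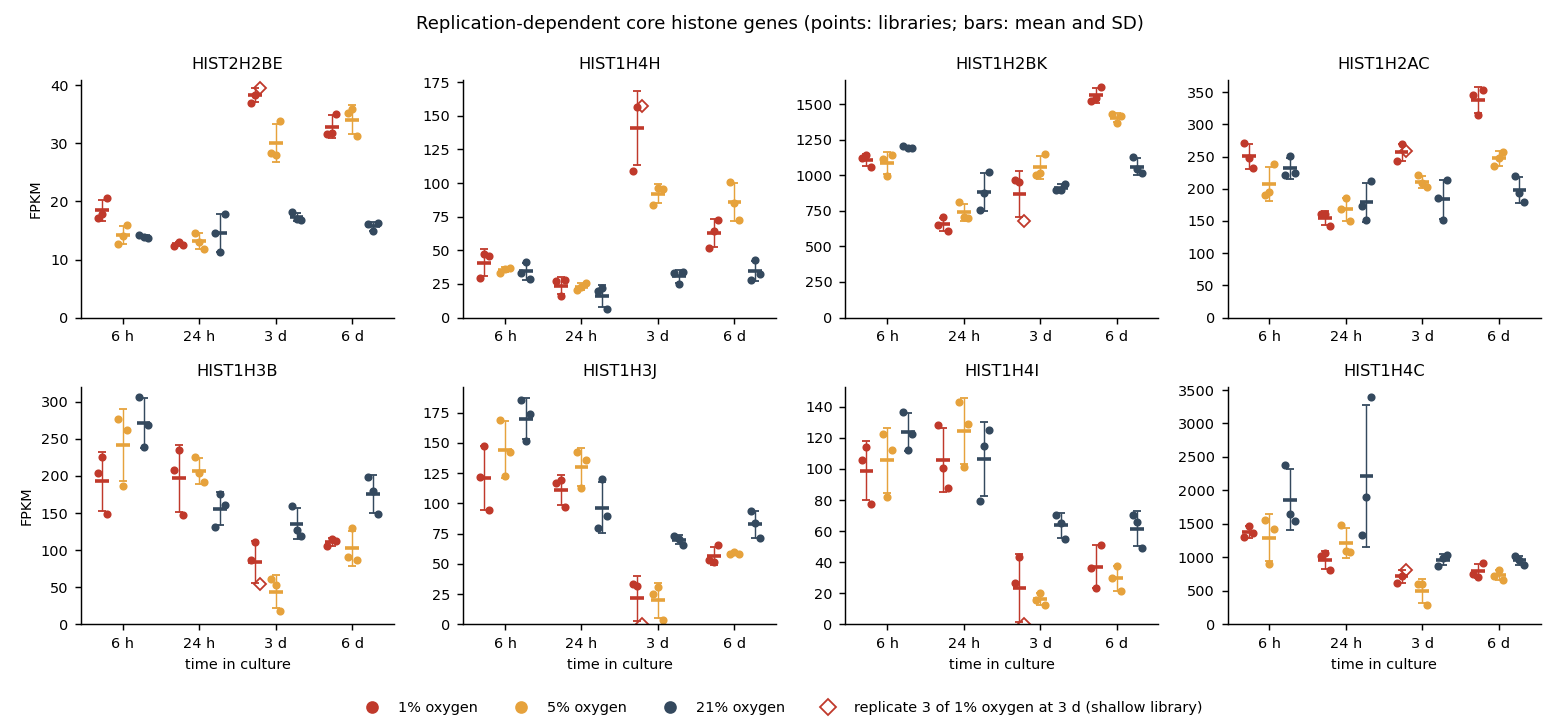
FPKM of 8 replication-dependent core histone genes in every library by time and oxygen level; points are libraries, bars the mean and SD of 3, and the open diamond is the shallow library. The genes of the upper row lie higher in 1% than in 21% oxygen at 6 d, and those of the lower row lie lower in 5% than in 21% oxygen at 3 d.

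Replicate 3 of 5% oxygen at 3 d stood below its own group in several of the genes that fell. It had 20.6 FPKM of HIST1H1E, against 148 and 137 FPKM in replicates 1 and 2, and 18.4 FPKM of HIST1H3B, against 61.0 and 52.6 FPKM. For HIST1H1C it had 1674 FPKM beside 1675 and 1705, and for H2AFZ 1338 FPKM beside 1320 and 1312. Of the 17 members called in 5% oxygen at 3 d, 9 were called without this library. The share of all genes called in that fit is not given here, so the count is no result about histones. HIST1H1E, HIST1H1B, HIST1H3B, H2AFZ and H3F3B were the lower members among the 9, and HIST1H1C, HIST1H2BD, HIST1H4H and HIST2H2BE the higher ones. HIST1H4C was then at -0.67 (adjusted p 0.073) and HIST1H3J at -1.31 (adjusted p 0.292).

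Several members depended on the shallow library. HIST1H4E had 389 FPKM in it, against 64.0 and 55.9 FPKM in the other libraries of 1% oxygen at 3 d, and 67.8, 52.4 and 41.1 FPKM in 21% oxygen. Its rise there of 1.07 (adjusted p 0.0265) was 0.18 without the library (adjusted p 0.51), and in 5% oxygen at 3 d it fell by 1.15 (adjusted p 0.0388), a call lost without replicate 3 of that group (adjusted p 0.177). HIST1H3H, listed at 0 in the shallow library, had 99.2, 111 and 99.3 FPKM in 1% and 116, 116 and 92.6 FPKM in 5% oxygen at 6 d, against 60.8, 60.9 and 67.3 FPKM in 21% oxygen. Its differences of 0.70 and 0.76 missed the test over all libraries (adjusted p 0.754 and 0.674) and passed without the shallow library (adjusted p 9.43e-05 and 2.2e-05).

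HIST1H2BD is listed as a pair of transcripts, which separates the stem-loop form from a form without it. NM_021063 ends 39 bases after the stem-loop in GENCODE 29, and NM_138720 is a longer form with 384 bases after the stop codon and no stem-loop. At 6 d NM_138720 had 48.2, 46.7 and 56.1 FPKM in 1% and 63.2, 57.3 and 63.7 FPKM in 5% oxygen, against 30.8, 37.8 and 36.6 FPKM in 21% oxygen. NM_021063 had 12.4, 16.0 and 6.46 FPKM in 1% and 5.06, 0.788 and 6.44 FPKM in 5% oxygen, against 14.4, 10.2 and 8.38 FPKM in 21% oxygen. The form without the stem-loop lay higher in all low-oxygen libraries, while the stem-loop form lay lower in all 5% libraries and overlapped in 1% oxygen. The stem-loop form held 18.8% of the gene's FPKM in 1% and 6.25% in 5% oxygen at 6 d, against 23.8% in 21% oxygen. At 3 d it held 7.38% in 5% oxygen, against 22.1% in 21% oxygen. In the shallow library the split was the other way, with 51.1 FPKM in NM_021063, so no share is read for 1% oxygen at 3 d. The whole gene rose by 0.70 and 0.50 in 5% oxygen at 3 d and 6 d (adjusted p 0.000543 and 0.0166). These transcript shares are the authors' estimates and were not tested.

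Of the 6 tested variant histones, 5 passed in at least 1 single-time comparison over all libraries, always as a fall, beside 65.8% of all genes. The call of H3F3A, in 1% oxygen at 3 d, was lost without the shallow library. Without that library 5 variants also passed, beside 83.7% of all genes, with H3F3A higher in 2 comparisons and lower in 1. H2AFZ, which encodes H2A.Z, had 1140, 1245 and, in the shallow library, 710 FPKM in 1% oxygen at 3 d and 1320, 1312 and 1338 FPKM in 5% oxygen, against 2019, 2026 and 2239 FPKM in 21% oxygen. It fell by 1.06 and 0.66 (SE 0.13, adjusted p 1.77e-07 and 0.000336), and by 0.81 in 1% oxygen without the shallow library (adjusted p 9.34e-08). At 6 d it had 1817, 1999 and 2114 FPKM in 1% and 1590, 1450 and 1518 FPKM in 5% oxygen, against 2021, 1918 and 1905 FPKM in 21% oxygen. The 6 d differences were 0.02 in 1% (adjusted p 0.978) and -0.36 in 5% oxygen (adjusted p 0.0628 over all libraries and 0.0022 without the shallow one). The difference of H2AFZ between 1% and 21% oxygen varied with time (adjusted p 5.98e-05).

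H3F3B, from the pair of genes for the replacement histone H3.3, fell at 3 d and at 6 d in both oxygen levels. At 3 d it had 133, 140 and, in the shallow library, 64.0 FPKM in 1% and 154, 143 and 157 FPKM in 5% oxygen, against 217, 225 and 218 FPKM in 21% oxygen. H3F3B at 6 d had 133, 134 and 150 FPKM in 1% and 141, 132 and 126 FPKM in 5% oxygen, against 201, 193 and 194 FPKM in 21% oxygen. At both times no low-oxygen library reached a 21% library. H3F3B fell by 1.04 and 0.54 at 3 d and by 0.50 and 0.56 at 6 d in 1% and 5% oxygen (adjusted p 4.91e-06, 0.0139, 0.0411 and 0.0151). Without the shallow library its fall in 1% oxygen at 3 d was 0.68 (adjusted p 5.34e-08).

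H3F3A, the other H3.3 gene, did not follow H3F3B. H3F3A had, at 6 d, 886, 773 and 832 FPKM in 1% and 633, 612 and 656 FPKM in 5% oxygen, against 446, 432 and 475 FPKM in 21% oxygen, and the groups did not overlap. The differences of 0.88 and 0.49 missed the test over all libraries (adjusted p 0.781 and 0.87), with the shallow library at 0.303 FPKM in the spread, and passed without it (adjusted p 0.000689 and 0.0402). At 3 d H3F3A had 628 and 486 FPKM in 1% oxygen but 0.303 FPKM in the shallow library, which made a fall of 3.00 (adjusted p 0.0297); without it the difference was -0.09 (adjusted p 0.741). All 25-base windows of its coding sequence occur elsewhere in the annotation, so its reads may be shared with other genes.

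H2AFV, the second H2A.Z gene, had 73.9, 82.1 and, in the shallow library, 58.7 FPKM in 1% oxygen at 3 d, against 97.4, 102 and 94.4 FPKM in 21% oxygen, a fall of 0.46 (adjusted p 0.000793). Averaged over the 4 times H2AFV fell by 0.23 in 1% and 0.24 in 5% oxygen (adjusted p 0.00141 and 0.000967). H2AFX, which encodes H2A.X, the variant phosphorylated at DNA breaks, had 10.8, 9.57 and 11 FPKM in 5% oxygen at 3 d, against 20.5, 16.8 and 15.2 FPKM in 21% oxygen. Its difference of -0.68 missed the test over all libraries (adjusted p 0.41) and passed without the shallow one (adjusted p 0.00228). In 1% oxygen at 3 d H2AFX fell by 1.73 (adjusted p 0.00636), with 10.5 and 13.7 FPKM and 0 in the shallow library, and by 0.50 without that library (adjusted p 0.0346). H1FX, the linker variant H1.10, stood at 1.00 to 6.20 FPKM in 35 libraries, and was at -0.11 in 5% oxygen at 6 d (adjusted p 0.919).

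**Figure D4:**
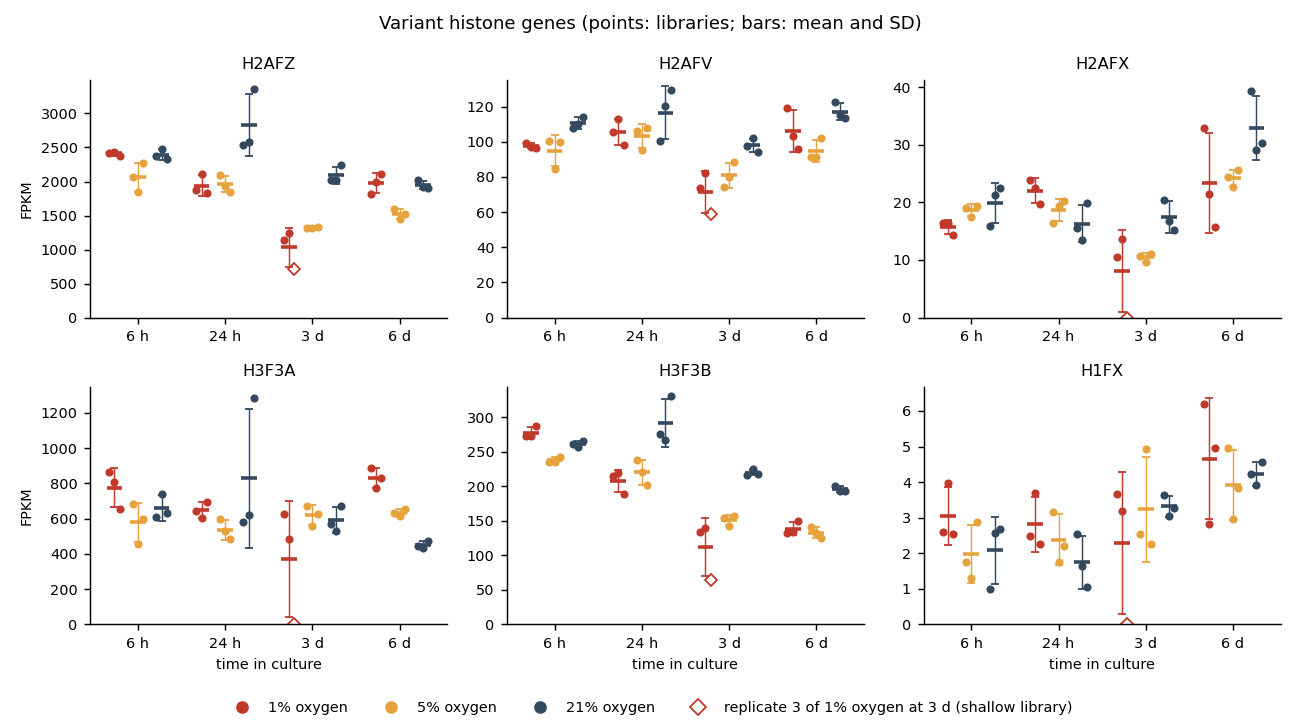
FPKM of 6 variant histone genes in every library by time and oxygen level; points are libraries, bars the mean and SD of 3, and the open diamond is the shallow library. H2AFZ and H3F3B lie below their 21% levels at 3 d in both low oxygen levels, and H3F3A lies above at 6 d.

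Summed over genes, replication-dependent FPKM exceeded variant FPKM in every library, and the excess was larger in 5% than in 21% oxygen at 24 h, 3 d and 6 d. The log2 ratio of the sums averaged 1.05 ± 0.121 in 5% oxygen at 3 d, against 0.627 ± 0.0469 in 21% oxygen (SD, n = 3 each). At 6 d it averaged 1.29 ± 0.0667 in 5% oxygen, against 0.874 ± 0.0553 in 21% oxygen. In 1% oxygen the ratio was 1.26, 1.38 and, in the shallow library, 2.27 at 3 d, and averaged 0.958 ± 0.0389 at 6 d. At 24 h the ratio was 0.658 to 0.815 in 5% oxygen, against 0.338 to 0.595 in 21% oxygen, with no overlap, while 1% oxygen, at 0.451 to 0.644, overlapped with 21% oxygen. At 6 h it was 0.589 to 0.773 in 1% oxygen, below the 0.789 to 1.13 of 21% oxygen, and 0.877 to 1.00 in 5% oxygen. At 3 d the variant sum differed and the replication-dependent sum did so by less than its spread. The replication-dependent sum was 4532 ± 271 FPKM in 5% oxygen, against 4668 ± 196 FPKM in 21% oxygen, and the variant sum 2189 ± 71.5 FPKM, against 3025 ± 190 FPKM. At 6 d both moved, with 5892 ± 95.6 FPKM of replication-dependent genes in 5% oxygen, against 5042 ± 287 FPKM in 21% oxygen, and 2409 ± 88.0 FPKM of variants, against 2749 ± 75.2 FPKM. HIST1H1C, the most abundant HIST gene, weighed on the ratio. Without that gene the ratio differed by 0.12 at 3 d and 0.15 at 6 d, in place of 0.42 at each time. H2AFZ weighed most on the variant sum, with means of 1323 FPKM in 5% and 2095 FPKM in 21% oxygen at 3 d. At 6 d the H2AFZ means were 1519 and 1948 FPKM, while H3F3A was higher in 5% oxygen (633 against 451 FPKM). The variant sum is thus no measure of the variants as a class. Class sums moved in opposite directions at 3 d, following single abundant genes. H4 genes summed to 640 ± 186 FPKM in 5% oxygen, against 1123 ± 66.7 FPKM in 21% oxygen. The H4 sum was 426 FPKM in replicate 3 of 5% oxygen, against 742 and 754 FPKM in replicates 1 and 2. It followed HIST1H4C, while HIST1H4H was higher. H1 genes summed to 1807 ± 91.0 FPKM, against 1539 ± 107 FPKM. That rise followed HIST1H1C (means of 1685 against 1050 FPKM), while HIST1H1E, HIST1H1B and HIST1H1D were lower.

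**Figure D5:**
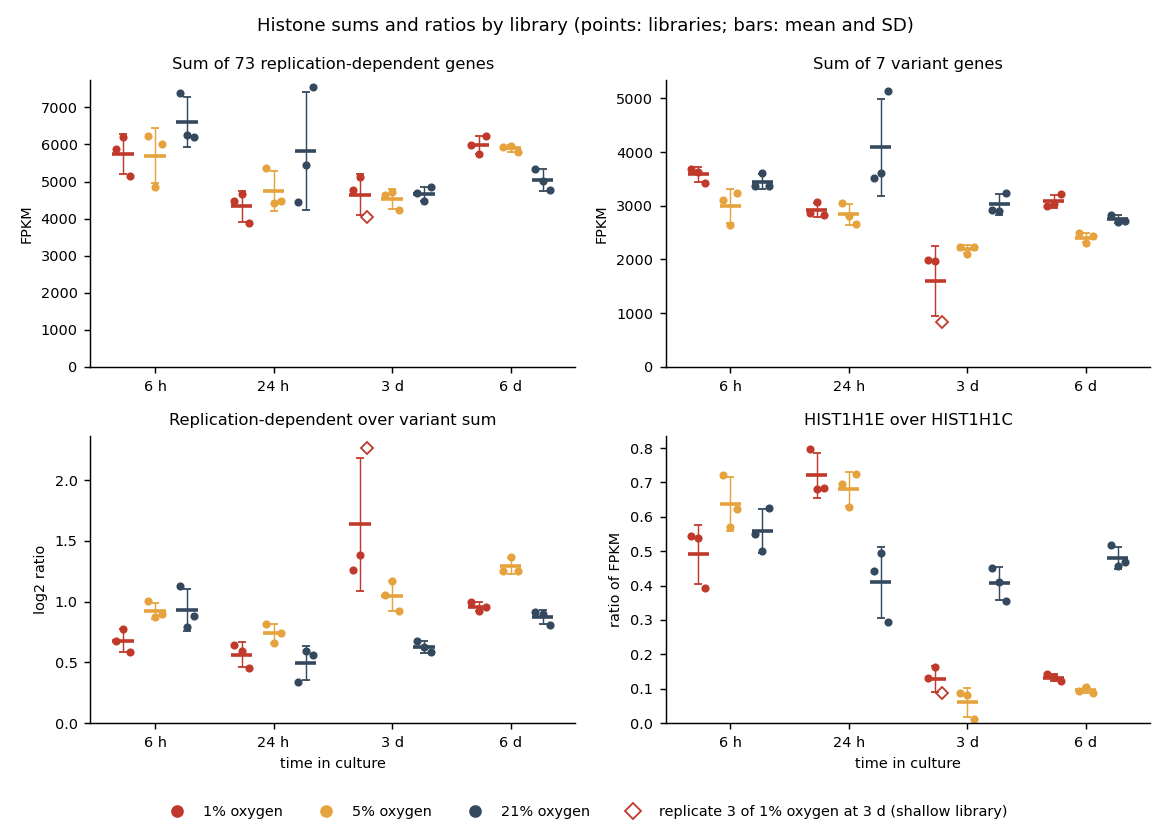
Summed FPKM of replication-dependent and variant histone genes, the log2 ratio of the sums, and the ratio of HIST1H1E to HIST1H1C FPKM, in every library by time and oxygen level; points are libraries, bars the mean and SD of 3, and the open diamond is the shallow library. HIST1H1E over HIST1H1C lies at 0.164 or less in low oxygen at 3 d and 6 d, and at 0.356 or more in 21% oxygen at those times.

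Over the 8 comparisons of single times with 21% oxygen, 30 of the 53 tested members passed at least once, while 65.8% of all genes did. Of the replication-dependent genes 7 were higher only, 15 lower only and 3 were higher in some comparisons and lower in another: HIST1H2BK and HIST3H2A higher in 2 and lower in 1, and HIST1H4E higher in 1 and lower in 1. Without the shallow library 40 passed, beside 83.7% of all genes; 13 replication-dependent genes were then higher only, 16 lower only and 6 both. Among less abundant genes the H2A gene HIST1H2AL fell by 1.97 in 1% oxygen at 3 d (adjusted p 0.000986) and by 1.33 without the shallow library (adjusted p 0.0104). HIST1H2BL, an H2B gene, fell by 1.39 there (adjusted p 0.00136) and by 0.75 without that library (adjusted p 0.0127). HIST2H2BF, another H2B gene, fell by 1.23 in 5% oxygen at 3 d (adjusted p 0.0304), and the call was lost without replicate 3 of that group (adjusted p 0.153). HIST1H2AG and HIST1H2BO, listed at 0 in the shallow library, missed the test in 1% oxygen at 3 d over all libraries (adjusted p 0.229 and 0.287) and were 0.92 and 0.90 higher without it (adjusted p 0.000488 and 0.00158); both were picked out after their values were seen. The other 27 members lay under the filter. HIST1H4K, at 1.06 FPKM, was the lowest that passed it, and HIST1H2BA, at 0.668 FPKM, the highest that did not.

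The difference from 21% oxygen varied with time for 14 of 53 members in 1% oxygen, while 40.3% of all genes passed, and for 12 in 5% oxygen, while 14.5% passed. Without the shallow library these were 24 and 25 members, beside 63.3% and 42% of all genes. HIST2H2BE had the smallest adjusted p in both (1.12e-06 and 4.98e-06), and the 4 tested HIST1H1 genes passed in both, while the linker variant H1FX passed in neither (adjusted p 0.23 and 1). The 21% libraries are shared by the comparisons.

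At 24 h the calls over all libraries depended on replicate 3 of 21% oxygen. That library had a relative depth of 0.344, against 0.991 and 0.87 in replicates 1 and 2, and 14512 genes above 0. Its FPKM summed to 1171000 over all genes, against 780300 and 900700 in replicates 1 and 2. The part of depth and scaling in its histone values was not tested. In 1% against 21% oxygen 4 members were lower and 0 higher, while 16.2% of all genes passed (6.56% higher and 9.66% lower). They were HIST1H4C (-1.10), H2AFZ (-0.54), H3F3B (-0.48) and HIST1H2BK (-0.42). In 5% oxygen HIST3H2A (-0.67) and H2AFZ (-0.52) were lower, 2 of 53, while 9.38% of all genes passed (2.39% higher and 6.99% lower). Replicate 3 of 21% oxygen at 24 h had 3397 FPKM of HIST1H4C, against 1337 and 1902 FPKM in replicates 1 and 2, and 3362 FPKM of H2AFZ, against 2541 and 2587 FPKM. Without it 0 members passed in either comparison. The share of all genes called in those fits is not given here, so the loss is no result about histones. The differences kept their sign: HIST1H4C was at -0.73, H2AFZ at -0.41, H3F3B at -0.39 and HIST1H2BK at -0.31 in 1% oxygen (adjusted p 0.0833, 0.0723, 0.222 and 0.0796). HIST3H2A was at -0.48 and H2AFZ at -0.39 in 5% oxygen (adjusted p 0.128 and 0.204). With the shallow library left out in its place, 0 members were higher and 5 lower in 1% oxygen, beside 38.7% of all genes (16.6% higher and 22.1% lower). In 5% oxygen 3 were then higher and 10 lower, 13 of 53, beside 28.3% of all genes (9.53% higher and 18.7% lower). Rescaling each library to TPM moved the median of all genes to 0.39 in 1% and 0.36 in 5% oxygen at 24 h, and after quantile normalization the sign of H2AFZ turned in both comparisons and that of HIST1H2BK in 1% oxygen, the last also as TPM. As TPM 3 members were higher and 0 lower in 1% oxygen at 24 h, beside 21.5% of all genes higher and 0.828% lower. In 5% oxygen 5 were higher and 0 lower as TPM, beside 16.1% and 0.113% of all genes. Quantile normalization gave 0 calls in 1% oxygen (6.52% of all genes higher and 3.86% lower) and 1, higher, in 5% oxygen (1.87% and 0.885%).

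Averaged over the 4 times, 5 members were higher and 12 lower in 1% against 21% oxygen, 17 of 53, while 31.4% of all genes passed (12.4% higher and 19% lower). In 5% oxygen 5 were higher and 7 lower, 12 of 53, while 24.2% of all genes passed (9.21% higher and 15% lower). HIST2H2BE (0.58 in 1% and 0.43 in 5% oxygen) and HIST1H4H (0.97 and 0.89) were higher in both, and H3F3B (-0.48 and -0.41), H2AFZ (-0.39 and -0.44) and HIST1H4C (-0.56 and -0.68) lower in both. The split of higher and lower calls depended on scaling: in 1% oxygen it was 10 to 11 after quantile normalization, beside 16.1% of all genes higher and 18.7% lower, and 10 to 7 as TPM, beside 18.6% and 7.07%. In 5% oxygen it was 9 to 11 after quantile normalization (12.9% and 13.8% of all genes) and 7 to 5 as TPM (12.9% and 4.81%). At 3 d in 1% oxygen it was 10 to 12 after quantile normalization (24% and 28% of all genes) and 10 to 15 as TPM (18.7% and 29.2%). At 6 d it was 9 to 6 in 1% oxygen after quantile normalization (8.42% and 7.63%) and 8 to 1 in 5% oxygen as TPM (7.3% and 2.44%). Between 1% and 5% oxygen 2 members differed, HIST3H2A (0.46, adjusted p 0.000143) and HIST1H2AC (0.22, adjusted p 0.0266), both higher in 1% oxygen (2 to 1 after quantile normalization, beside 3.61% and 3.85% of all genes), while 4.41% of all genes passed (2.89% higher and 1.52% lower).

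In 21% oxygen the histone genes that passed the test with time in culture fell. At 3 d against 6 h HIST1H3B (-1.0), HIST1H4C (-0.92), HIST1H2BD (-0.55) and HIST1H2BK (-0.40) were lower and 0 higher, 4 of 53, while 4.6% of all genes passed (3.42% higher and 1.19% lower). Leaving out any 1 of the 6 libraries compared left 0 or 1 member past the test at 3 d. At 6 d HIST1H4C was lower (-0.93, adjusted p 0.0186), 1 of 53, while 11.1% of all genes passed (7.89% higher and 3.24% lower). It had 1018, 965 and 887 FPKM at 6 d, against 2379, 1652 and 1549 FPKM at 6 h, with no overlap, and 0 or 1 member passed with any 1 of those 6 libraries left out. The shares of all genes called with 1 library left out are not given here for 3 d or 6 d. At 24 h 0 members passed and 10 had an unadjusted p under 0.05, while 0.132% of all genes passed (0.0471% higher and 0.0847% lower). With the shallow library left out, 15 members passed at 3 d and 13 at 6 d, beside 18.1% and 29.3% of all genes, and 1 and 2 of them were higher. Over all libraries the split at 3 d was 1 higher to 2 lower as TPM, beside 3.86% of all genes higher and 0.461% lower, and at 6 d 1 to 2 after quantile normalization, beside 8.28% and 6.96%.

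More genes that process or place histones were lower than higher at 3 d. Of 17 tested genes of histone mRNA processing and decay, 0 were higher and 6 lower in 5% oxygen at 3 d, beside 8.25% and 13.6% of all genes. The median log2 difference of the 17 was -0.40, beside -0.10 over all genes. CSTF2 (-0.81), CPSF3 (-0.39), LSM1 (-0.43), CASP8AP2 (-0.55) and NCBP1 (-0.51) had the smallest adjusted p-values there. SLBP, the stem-loop binding protein, fell by 0.86 in 5% oxygen at 3 d (adjusted p 0.0273) and was at -0.54 at 6 d (adjusted p 0.238). NPAT, the activator of replication-dependent histone transcription, was at -0.14 in 5% oxygen at 3 d (adjusted p 0.871). Of 23 histone chaperone and deposition genes, 2 were higher and 10 lower in 5% oxygen at 3 d, with a median of -0.35. They included the histone importer IPO4 (-0.92), the H1 and H3 carrier NASP (-0.61), RBBP4 (-0.57) and HIRA (-0.52), which places H3.3, while NAP1L1, an H2A and H2B chaperone, rose (0.33). In 1% oxygen at 3 d 1 of the processing genes was higher and 11 lower, and 3 of the chaperone genes were higher and 13 lower. Of all genes 16.9% were higher and 36.3% lower there. Without the shallow library the counts were 1 and 8, and 4 and 12, beside 25.1% and 28.6% of all genes.

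S phase genes were counted beside the histones. Of 28 tested, 0 were higher and 14 lower in 5% oxygen at 3 d, and 1 higher and 23 lower in 1% oxygen, among them MCM3 (-0.77 in 5% and -1.06 in 1% oxygen), CDC45 (-0.66 and -1.10) and GINS2 (-0.92 and -1.51). In 1% oxygen at 6 d 7 were higher and 0 lower, among them RRM2 (0.86) and LIG1 (0.54), while 7 histone genes were higher and 2 lower in the same comparison. In 5% oxygen 1 was higher and 4 lower at 6 d. The shares of all genes at 3 d were 8.25% higher and 13.6% lower in 5% oxygen, and 16.9% and 36.3% in 1% oxygen. At 6 d these shares were 7.24% and 7.59% in 5% oxygen, and 5.84% and 5.04% in 1% oxygen. RNAs without a poly(A) tail, such as small nuclear and small Cajal body RNAs, were counted as a sign of what passed the selection: of 38 tested, 0 were higher and 1 lower in 5% oxygen at 3 d and 0 passed at 6 d. Leaving out the U6 genes their sum was 208 to 2599 FPKM in 5% oxygen at 6 d, against 737 to 1270 FPKM in 21% oxygen. At 3 d it was 1506 to 2312 FPKM in 5% oxygen, against 564 to 891 FPKM in 21% oxygen. Their part in the histone values was not tested.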

How the data were processed

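The deposited values are FPKM per gene and per transcript. TopHat, Cufflinks and Cuffnorm are the tools listed, per the submitters' processing notes. Their versions, and the build or gene models used, are not given in the sources. Libraries were made from total RNA with a Smart-seq2 protocol that includes poly(A) selection and read as short read pairs, per the labels' protocols. No counts were used, so counting error is unknown; the number of libraries limits the precision. Groups came from the labels. Values were taken as log2 of FPKM plus 1, genes with a mean of at least 1 FPKM over the 36 libraries were kept (10625 of 21950), and 1 limma model (limma 3.58.1, R 4.3.3) fitted 12 group means under a prior variance that follows expression (24 residual degrees of freedom) and gave two-sided tests, adjusted by Benjamini-Hochberg over all genes. A difference is on that log2 scale and understates the change of weak genes. The model was tested on simulated data with known changes. Ratios of summed FPKM were described without a test. Members named were the variants, the 15 most abundant HIST genes, up to 5 of the largest rises and falls per comparison, and up to 5 genes with the smallest adjusted p from each other list. HIST1H1D, SLBP, NPAT, HIST1H4I, HIST1H3H, HIST1H2BL and HIST2H2BF in single comparisons, and the ratio of HIST1H1E to HIST1H1C, were named after their values were seen. The members and lists were chosen with earlier results of these data known. Replicate numbers did not pair the libraries (24 pairs, correlation of deviations -0.264 to 0.116). Sequences came from RefSeq (GRCh38.p14 promoters) and GENCODE 29, which may not be the authors' build, and all 80 members matched RefSeq. Alternatives were another pseudocount, no filter or a stricter one, quantile normalization, TPM, fits of the compared groups alone, a replicate block and leaving out each library.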

Additional observations from a re-analysis of the deposited data

Results flagged for a closer look

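The following members were marked because their difference from 21% oxygen varied with time by a moderated F test of that variation. For 1% oxygen the adjusted p-values were 1.12e-06 for HIST2H2BE, 5.98e-05 for H2AFZ, 6.04e-05 for HIST1H2BK, 0.000101 for HIST1H3D, 0.000144 for HIST3H2A, 0.000227 for HIST1H2AC and 0.000634 for HIST1H1C. They were 0.00193 for HIST1H4H, 0.00195 for HIST1H2BD, 0.00233 for H3F3B, 0.0218 for HIST1H1B, 0.0238 for HIST1H1D, 0.028 for HIST1H2AL and 0.0359 for HIST1H1E. These were 14 of 53 members, while 40.3% of all genes passed. Without the shallow library 24 members passed, against 63.3% of all genes.

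For 5% oxygen the adjusted p-values were 4.98e-06 for HIST2H2BE, 3.98e-05 for HIST1H1C, 0.00151 for HIST1H1B, 0.00209 for HIST1H1E, 0.00253 for HIST1H2BD and 0.00263 for HIST1H3B. They were 0.00527 for HIST1H2BK, 0.0125 for HIST1H3D, 0.0192 for HIST1H2BJ, 0.0268 for HIST3H2A, 0.0271 for HIST1H4H and 0.0457 for HIST1H1D. These were 12 of 53 members, while 14.5% of all genes passed. The linker genes HIST1H1C, HIST1H1E, HIST1H1B and HIST1H1D passed in both tests, 4 of the 4 tested HIST1H1 genes, and the tests share the 21% libraries.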

How the results depend on the processing

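The shallow library and the choice of groups moved the counts of called members most. A count alone is no result about histones, because the share of all genes called can move with the setting. Without the shallow library in the whole model the counts were 22 in 1% against 21% oxygen at 6 d, 26 in 5% oxygen averaged over the times, 13 at 24 h, 27 at 3 d and 22 at 6 d, 4 between 1% and 5% oxygen, 3, 15 and 13 at 24 h, 3 d and 6 d against 6 h in 21% oxygen, and 24 and 25 for variation with time in 1% and 5% oxygen. The shares of all genes were, in that order, 29.9%, 48.5%, 28.3%, 45.1%, 36.9%, 14.1%, 2.43%, 18.1%, 29.3%, 63.3% and 42%. Shares for the fits of the compared groups alone, the filters, the replicate block and the other single omissions are not given here. Fitting the compared groups alone gave 2, 4 and 23 in 1% oxygen at 24 h, 3 d and 6 d, 26, 0, 27 and 30 in 5% oxygen averaged and at 24 h, 3 d and 6 d, 19 and 17 at 3 d and 6 d in 21% oxygen, and 26 for variation with time in 5% oxygen. Quantile normalization gave 0 and 15 in 1% oxygen at 24 h and 6 d, 20 and 1 in 5% oxygen averaged and at 24 h, and 4 and 3 at 24 h and 6 d in 21% oxygen. TPM gave 5 in 5% oxygen at 24 h, 1 between 1% and 5% oxygen and 4 at 24 h in 21% oxygen. A mean of at least 5 FPKM gave 1 at 24 h and no filter gave 2 at 3 d in 21% oxygen. Leaving out 1 library of the compared groups gave 13 to 21, 0 to 6, 19 to 34 and 6 to 8 in 1% oxygen averaged and at 24 h, 3 d and 6 d, and 10 to 13, 0 to 5, 10 to 16 and 6 to 10 in 5% oxygen. It gave 1 to 4 between 1% and 5% oxygen, 0 to 2, 0 to 1 and 0 to 1 in 21% oxygen, and 12 to 25 and 10 to 12 for variation with time. Signs turned at 24 h for H2AFZ in 1% and 5% oxygen (0.073 and 0.11 after quantile normalization) and for HIST1H2BK in 1% oxygen (0.11 after quantile normalization and 0.038 as TPM). The log2 ratio of the sums, taken as the difference of median changes, was 0.251, 0.304 and 0.014 in 1% oxygen at 24 h, 3 d and 6 d and 0.15, 0.422 and 0.219 in 5% oxygen at 6 h, 24 h and 3 d; without the most abundant HIST gene it was -0.0739 in 1% oxygen at 6 d and 0.115 and 0.147 in 5% oxygen at 3 d and 6 d. The cause of these shifts was not tested, other than that each omission leaves fewer libraries. A replicate block, with numbers that do not pair the libraries, gave 23 and 8 members in 1% oxygen at 3 d and 6 d and 18 and 12 in 5% oxygen. Depth in counts is unknown, so genes near 1 FPKM are the least certain.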
